A study of Mus musculus with 6 samples.

Results

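The matrix metalloproteinases, the ADAMTS proteases with the ADAMTS-like proteins, and the tissue inhibitors of metalloproteinases were followed across the cell classes of the congested mouse liver. The members were all gene symbols of the deposited matrices that begin with Mmp, Timp, Adamts or Adamtsl and a number. This gave 48 genes of 25369, with 20 Mmp, 19 Adamts, 5 Adamtsl and 4 Timp genes, and 39 of them were listed in all 6 libraries. All mice were wild-type males whose inferior vena cava had been partially ligated (pIVCL) at 8 to 10 weeks of age. Pumps were placed 2 weeks after surgery and treatment lasted 4 weeks, after which the liver was taken. The CWHM-12 group (3 libraries) received CWHM-12, which blocks αV-containing integrins as a group, at 100 mg/kg/day, and the DMSO group (3 libraries) received the vehicle. Every library therefore comes from an operated, congested liver, and unoperated mice were not analysed here.

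Matrix metalloproteinases are zinc proteases that cut collagens, gelatins, elastin and cell-surface proteins, and most are secreted as inactive proforms. ADAMTS enzymes are secreted relatives that cut proteoglycans, procollagen ends or von Willebrand factor, whereas ADAMTS-like proteins lack the protease domain and bind microfibrils of the matrix. TIMPs bind the active site of these enzymes and block it. In the injured liver the balance of these proteases and TIMPs sets how fast scar matrix is removed, and stellate cells, the pericytes of the sinusoid, make most of that matrix.

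The libraries were BD Rhapsody single-cell libraries with 28220477 to 48100436 UMIs (counted molecules) each, of which 3128 to 8346 cells per library were kept and 37982 in all. The labels give batch 2024.6 to CWHM-12 1, DMSO 1 and DMSO 2, and batch 2024.12 to CWHM-12 2, CWHM-12 3 and DMSO 3. At most 5 of the 10000 barcodes deposited per library were common to any pair of libraries. Cells fell into 49 clusters, made without the members, of which 7 stayed unnamed, and 16 classes had enough cells for a comparison of the groups. A class name means cells that resemble that type by its markers. Stab2, a scavenger receptor of liver sinusoidal endothelial cells (LSEC), averaged 1232 CPM (UMI counts scaled to a common library size) in the LSEC class, Lrat 1569 CPM in stellate cells and Clec4f 4106 CPM in Kupffer cells. A macrophage cluster with Cd207 among its leading genes is called the Cd207 macrophage cluster, with Clec4f at 1637 CPM. Timd4 was at 91.5 CPM there, against 684 CPM in Kupffer cells. Itgax, used as a marker of cDC2, was at 162 CPM, and Ccr2, used as a marker of monocytes, at 439 CPM. Classes built from marker scores alone gave the same name to 85.6% of cells, but to 65.5% in vascular endothelium, 76.1% in cDC2 and 0% in the Cd207 macrophage cluster, which has no score of its own. The labels print no mouse identifier, so p-values measure the spread between libraries, which may be technical.

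Of the 48 members, 34 had enough counts to be tested in at least 1 class, which gave 115 pairs of a gene and a class. The other 14 were too low to read in every class. They were Adamts3 with 46 UMIs in all kept cells, Adamts8 with 1, Adamts17 with 25, Adamts18 with 4, Adamts19 with 9, Adamts20 with 3 and Adamtsl3 with 58. The rest were Mmp3 with 31 UMIs, Mmp16 with 25, Mmp20 with 4, Mmp21 with 2, Mmp24 with 6, Mmp28 with 24 and Timp4 with 3. Of these genes, 8 had fewer than 10 UMIs, so a difference between groups was not detectable at this depth. A further 5 members were tested but stayed below 20 CPM in every class: Adamts4 and Adamts7 were highest in LSEC at 8.41 ± 5.45 and 13.7 ± 7.34 CPM, Adamts15 and Mmp17 in stellate cells at 17.1 ± 4.81 and 10.4 ± 2.59 CPM, and Adamts6 in B cells at 13.2 ± 2.32 CPM (SD, n = 6 libraries each). The other 29 members reached 20 CPM in a class. Among the 16 tested classes, which leave out portal fibroblasts, stellate cells were the highest class of 10 of them, mesothelial cells of 5, cholangiocytes of 4 and neutrophils of 3. With classes from marker scores, 27 of the 29 had the same highest class, and Mmp12 and Mmp13 did not. Their highest classes by scores were dendritic cells, cDC2 at 72.3 CPM for Mmp12 and cDC1 at 55.7 CPM for Mmp13. By scores, levels in neutrophils were lower, at 3476 CPM for Mmp8, 2083 CPM for Mmp9 and 290 CPM for Mmp25, as was Adamts14 in NK/ILC1 cells at 71.6 CPM. Levels are given as mean ± SD over all libraries that held at least 20 cells of the class. Levels of different genes are not set against each other, since the counts are not corrected for transcript length.

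**Figure D1:**
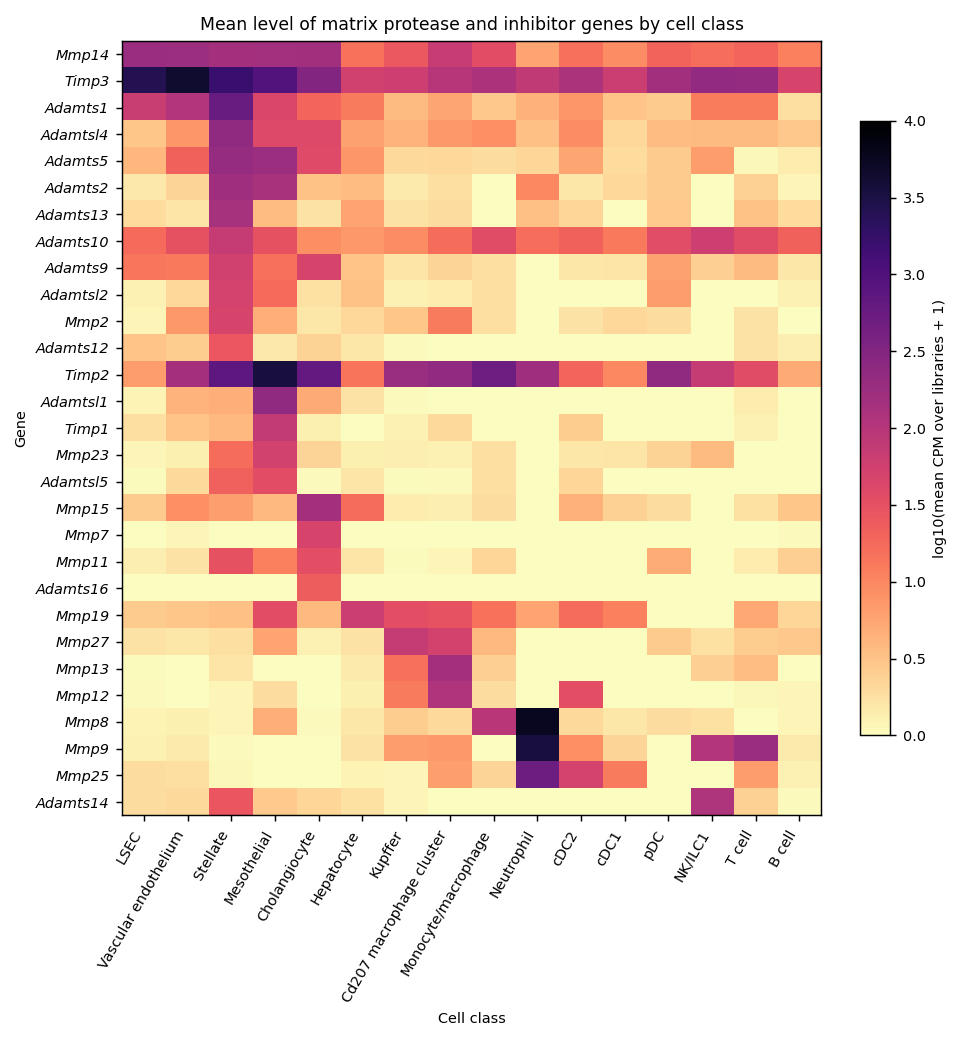
Mean level of 29 members in 16 cell classes, as log10 of CPM plus 1 over the libraries, with genes in rows and classes in columns. Most rows are dark in 1 or a few classes, and the stellate column is the darkest of 10 rows, whereas Timp3 is at or above 46.4 CPM in all 16 columns.

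The inhibitors differed in how broadly they were detected. Timp3, the TIMP that stays bound to the matrix and also inhibits ADAMTS enzymes, averaged 4418 ± 993 CPM in vascular endothelium and 2587 ± 440 CPM in LSEC (n = 6 each). It was higher in vascular endothelium in 6 of 6 libraries. Stellate cells followed with 1626 ± 347 CPM and mesothelial cells with 916 ± 230 CPM, and the lowest class was B cells at 46.4 ± 57.2 CPM. In Kupffer cells, 85.9 to 96.6% of a library's Timp3 UMIs lay in cells with at least 5 UMIs of 12 LSEC markers. In stellate cells this share was 53.0 to 78.1%. In mesothelial cells it was 44.95 to 64.9% in the libraries with at least 20 cells. The part of LSEC RNA in the Timp3 levels of these classes was not tested. Across the 16 class means, the genes most like Timp3 among 11837 were Cavin2 (Spearman's rho 0.988), Tspan7 (0.976), Igfbp7 (0.974), Amotl1 (0.968) and Ntn4 (0.965). These points share libraries and depth, so the values are a description. Timp3 took 65.3% of the 315224 UMIs of all members.

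Timp2, the inhibitor that forms a complex with Mmp14 and pro-Mmp2 at the cell surface, had another order of classes. It averaged 3445 ± 459 CPM in mesothelial cells (n = 5), 740 ± 209 CPM in stellate cells and 626 ± 80.5 CPM in cholangiocytes (n = 6 each). The stellate and cholangiocyte levels did not differ beyond their spread. LSEC, second for Timp3, had 5.58 ± 2.93 CPM of Timp2. Timp1, an inhibitor known to be induced in liver injury, averaged 73.3 ± 56.9 CPM in mesothelial cells (n = 5) and 2.84 ± 3.10 CPM in stellate cells (n = 6). Timp1, Timp3 and Timp4 lie within Syn1, Syn3 and Syn2 on the opposite strand (GRCm38), and whether counting used strand is not given in the sources used here. Paired totals were 269 UMIs for Timp1 and 3094 for Syn1, 205849 for Timp3 and 892 for Syn3, and 3 for Timp4 and 244 for Syn2. Without strand, reads of such a pair cannot be told apart, and Timp1 is the one with fewer UMIs than its host gene beside a measurable level.

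**Figure D2:**
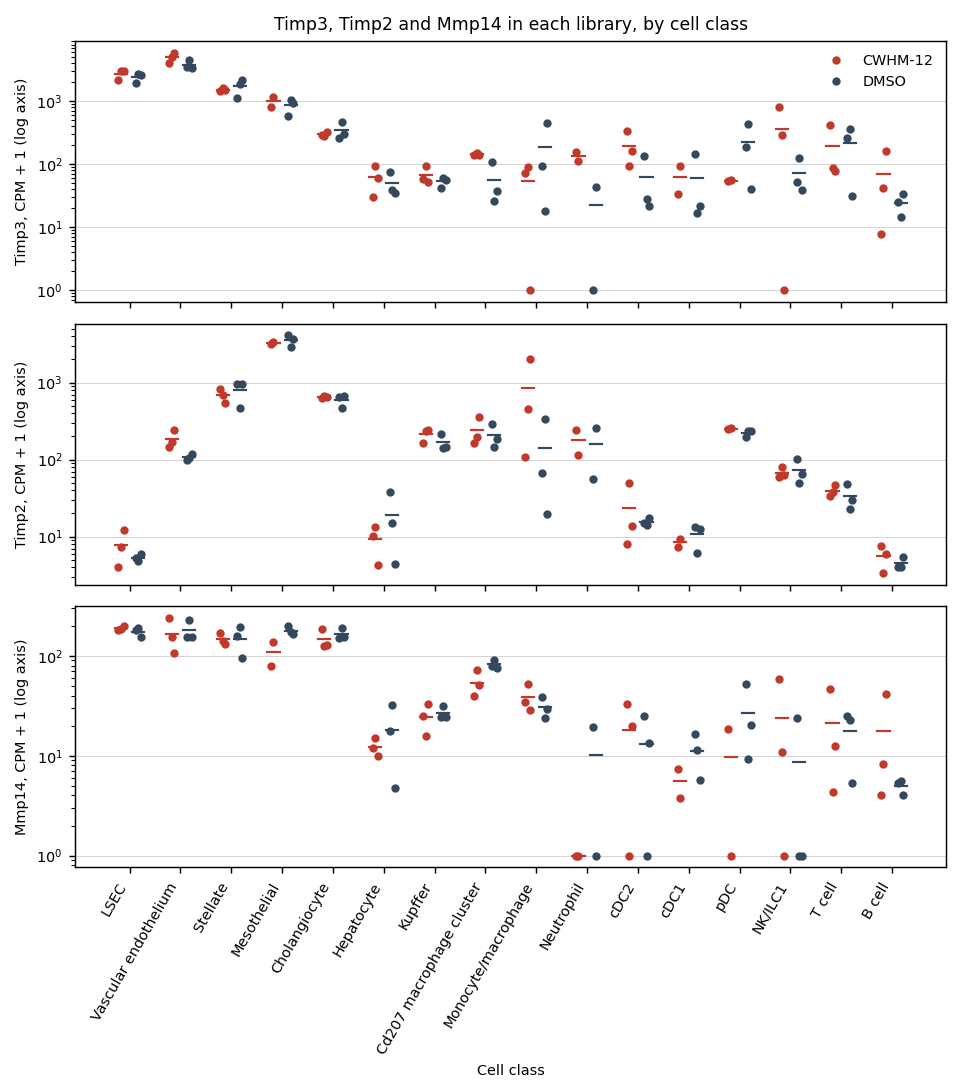
Level of Timp3, Timp2 and Mmp14 in each library by cell class, in CPM plus 1 on a log axis, with points for libraries (CWHM-12 left, DMSO right) and bars for group means. The Timp3 values of vascular endothelium lie between 3400 and 5954 CPM, and the Timp2 values of mesothelial cells between 2880 and 4090 CPM.

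Mmp14, a membrane-bound collagenase that activates pro-Mmp2, had its highest levels among the tested classes in 5 of them. LSEC had 182 ± 15.6 CPM, vascular endothelium 172 ± 50.4 CPM, cholangiocytes 155 ± 28 CPM, mesothelial cells 150.2 ± 45.8 CPM and stellate cells 147 ± 34.1 CPM. LSEC was above vascular endothelium in 3 of 6 libraries, and those neighbours in the order did not differ beyond their spread. Mmp2, the gelatinase A that Mmp14 activates, was highest among the tested classes in stellate cells at 46.7 ± 12.6 CPM, above the next class in 6 of 6 libraries. Portal fibroblasts, too few to test, were higher. Mmp15, another membrane-type protease, averaged 144 ± 31.2 CPM in cholangiocytes and 15.7 ± 7.75 CPM in hepatocytes (n = 6 each). Mmp11 did not differ between cholangiocytes (32.6 ± 9.94 CPM) and stellate cells (29.8 ± 8.52 CPM) beyond its spread. Mmp23 was highest among the tested classes in mesothelial cells at 52.7 ± 27 CPM, and portal fibroblasts were again higher.

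Leukocytes held the proteases of granules and of macrophages. Mmp8, the neutrophil collagenase, averaged 5817 ± 1439 CPM in neutrophils and 90.5 ± 57.7 CPM in the monocyte/macrophage class. Mmp9, the gelatinase B of neutrophil granules, averaged 3423 ± 684 CPM in neutrophils, 177 ± 42 CPM in T cells and 105 ± 52.5 CPM in NK/ILC1 cells. Mmp25, a membrane-anchored protease of leukocytes, averaged 520.1 ± 212 CPM in neutrophils (n = 4). In Kupffer cells, the resident liver macrophages, Mmp27 averaged 70.8 ± 12.1 CPM, and the Cd207 macrophage cluster had 49.9 ± 25.8 CPM. Mmp13, the main interstitial collagenase of rodents, averaged 147 ± 55.1 CPM in the Cd207 macrophage cluster and 14.7 ± 9.19 CPM in Kupffer cells, and the Cd207 macrophage cluster was higher in 6 of 6 libraries. Mmp12, the macrophage elastase, averaged 113 ± 110.3 CPM in that cluster. A single cell carried 111 of the 148 Mmp12 UMIs in CWHM-12 2 and another 222 of the 345 in DMSO 3.

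Cholangiocytes, the cells of the bile ducts, were also the highest class of Mmp15 and Mmp11, given above. Mmp7, the matrilysin of epithelia, averaged 46.2 ± 32.8 CPM in cholangiocytes, which held 99.2% of its UMIs. Adamts16 averaged 22.1 ± 6.06 CPM there, with 92.4% of its UMIs. Mmp19 was highest in hepatocytes at 63.0 ± 9.70 CPM, with 33.1 ± 23 CPM in mesothelial cells and 32 ± 7.30 CPM in Kupffer cells.

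ADAMTS genes were mostly those of stellate and mesothelial cells. Adamts1, a protease of versican and other proteoglycans, averaged 547 ± 104 CPM in stellate cells and 105 ± 63.9 CPM in vascular endothelium, higher in stellate cells in 6 of 6 libraries. Adamts5, an aggrecanase, averaged 201 ± 53.1 CPM in stellate cells and 175 ± 87.9 CPM in mesothelial cells, which did not differ beyond their spread. The same held for Adamts2, which trims the amino end of procollagen, at 160.2 ± 51.4 CPM in stellate cells and 132 ± 23.3 CPM in mesothelial cells. Adamts13, which cuts von Willebrand factor and is known to come from stellate cells, averaged 138 ± 54.5 CPM in stellate cells and 4.70 ± 4.92 CPM in hepatocytes. Adamtsl4, a fibrillin-binding protein, averaged 235 ± 71.5 CPM in stellate cells, and Adamtsl1 229 ± 37.6 CPM in mesothelial cells. Adamtsl2 averaged 48.5 ± 39.1 CPM in stellate cells, Adamts12 25.6 ± 11.6 CPM, Adamts9 55.1 ± 20.05 CPM and Adamts10 70.1 ± 37.1 CPM. Adamts9 in cholangiocytes (46.3 ± 13.6 CPM) and Adamts10 in NK/ILC1 cells (58.4 ± 34.6 CPM) did not differ from these beyond their spread. Adamtsl5 was highest in mesothelial cells at 34 ± 25.3 CPM, with 20.4 ± 11.3 CPM in stellate cells. Adamts14, another procollagen peptidase, was highest in NK/ILC1 cells at 119 ± 51.3 CPM and had 26.8 ± 13.9 CPM in stellate cells. Its neighbour on the chromosome, Prf1, which encodes perforin, averaged 558 CPM in NK/ILC1 cells and was at 0 in stellate cells. Prf1 is also one of the markers used for the NK/ILC1 class, so its high level there was built in. Among 28 members with a neighbouring gene at 20 CPM or more, 9 shared their highest class with a neighbour. Among all genes this held for 2063 of 9812. The 9 include Adamts1 with Adamts5 and Mmp12 with Mmp13, members that neighbour each other and are each counted. They also include Adamtsl4, whose neighbour Ecm1 is one of the markers used for stellate cells. Whether position has a part in the shared class of Adamts14 and Prf1 was not tested.

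Portal fibroblasts, the fibroblasts of the portal tracts, had 106 cells in all and were not tested. Over those cells, Timp2 was at 2842 CPM (exact 95% Poisson interval 2688 to 3001), Adamts5 at 919 CPM (833 to 1012) and Mmp2 at 753 CPM (675 to 837), where the intervals cover counting error only. For 7 of the 29 members this interval lay above the mean of the highest tested class, which was stellate cells for 5 of the 7. The 7 were Adamts2, Adamts5, Adamts10, Adamtsl2, Mmp2, Mmp14 at 343 CPM (291 to 402) and Mmp23 at 106 CPM (78.4 to 141). Timp2 was not among them. Mmp3, stromelysin-1, had 30 of its 31 UMIs in 5 of those cells.

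On chromosome 9, 7 members lie in a run of Mmp genes with other Mmp genes that are not members, and those at a readable level had 4 different highest classes. Mmp13 and Mmp12 were highest in the Cd207 macrophage cluster, Mmp8 in neutrophils, Mmp27 in Kupffer cells and Mmp7 in cholangiocytes. Their promoters, the 250 bases before the RefSeq start on build GRCm38.p6, plus strand, are shown because genes of the run differ in class. Capitals mark the AP-1 letters TGANTCA and the TATA letters TATAAA.
Mmp13 chr9:7272264-7272513: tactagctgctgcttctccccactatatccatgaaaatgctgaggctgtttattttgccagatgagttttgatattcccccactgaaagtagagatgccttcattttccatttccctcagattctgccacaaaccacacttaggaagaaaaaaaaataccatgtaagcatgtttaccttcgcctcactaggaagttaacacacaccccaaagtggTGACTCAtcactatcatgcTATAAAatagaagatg
Mmp12 chr9:7347124-7347373: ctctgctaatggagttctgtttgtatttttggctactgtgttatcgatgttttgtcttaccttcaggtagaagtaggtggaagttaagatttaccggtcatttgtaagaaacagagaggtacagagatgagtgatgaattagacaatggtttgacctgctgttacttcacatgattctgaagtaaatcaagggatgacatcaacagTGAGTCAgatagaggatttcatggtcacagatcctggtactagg
Mmp8 chr9:7558179-7558428: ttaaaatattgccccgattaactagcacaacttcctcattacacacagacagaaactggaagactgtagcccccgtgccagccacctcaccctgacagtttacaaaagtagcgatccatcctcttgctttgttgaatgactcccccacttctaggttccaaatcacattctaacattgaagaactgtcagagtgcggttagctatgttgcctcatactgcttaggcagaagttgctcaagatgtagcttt
Mmp27 chr9:7571146-7571395: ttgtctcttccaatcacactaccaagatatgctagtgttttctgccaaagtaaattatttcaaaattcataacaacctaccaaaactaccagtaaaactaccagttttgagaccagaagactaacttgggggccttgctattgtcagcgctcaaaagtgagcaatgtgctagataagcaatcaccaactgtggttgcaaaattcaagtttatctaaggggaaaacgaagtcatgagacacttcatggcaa
Mmp7 chr9:7691840-7692089: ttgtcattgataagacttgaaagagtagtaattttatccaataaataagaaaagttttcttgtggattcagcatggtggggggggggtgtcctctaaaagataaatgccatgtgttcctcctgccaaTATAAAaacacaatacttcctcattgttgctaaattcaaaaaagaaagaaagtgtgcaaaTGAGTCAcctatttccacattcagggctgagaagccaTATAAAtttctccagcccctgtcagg
Promoter sequences were at hand for 33 of the 48 members, so the shares below do not cover the whole set. On either strand, TGANTCA stood in 5 of their 36 promoters (13.9%), against 6.75% of 32851 promoters. These were the promoters of Mmp12, Mmp13, Mmp20, Mmp3 and Mmp7, which all lie in the chromosome 9 run. TATAAA stood in 7 of the 36 (19.4%), against 12.4% of all promoters. The first AP-1 base lay 35 bases before the start in Mmp13, 44 in Mmp12 and 63 in Mmp7, and these letters were not found in the windows of Mmp8 and Mmp27. For Mmp12 and Mmp7 RefSeq gives another start, whose window held neither set of letters, and the start with the AP-1 letters is shown.

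Levels also differed within classes. In LSEC, Timp3 was higher in cluster 4, led by Dnase1l3 and Cyp26b1, than in cluster 1, led by Lyve1 and Esm1, in all libraries, at 3190 to 5982 CPM and 1750 to 2478 CPM. Cluster 4 held 9.74, 23 and 47.2% of LSEC in CWHM-12 1 to 3, and 7.75, 10.9 and 5.82% in DMSO 1 to 3. The clusters were not split evenly over libraries, since 1537 cells of cluster 4 came from CWHM-12 3. In stellate cells, Adamts5 was at 203 to 559 CPM in cluster 16 and at 36.4 to 135 CPM in cluster 9. In T cells, Mmp9 was at 147 to 330 CPM in cluster 14, led by Cxcr6 and Ccl5, and at 0 to 14.6 CPM in cluster 22, led by Il7r and Lef1.

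The comparison of CWHM-12 with DMSO asks which members differ in the congested liver when αV integrins are inhibited. Among the 115 pairs, edgeR's quasi-likelihood test with a Benjamini-Hochberg adjustment in each class called 1 (Timp3 in NK/ILC1 cells), against a background of 0.0279% of the 111132 gene and class pairs. At an unadjusted p under 0.05 there were 15 member pairs (13%), against 2.68% of all pairs, and 5 of the 15 were Timp3. The groups did not overlap in 11 member pairs, against 12.3% of all pairs, with CWHM-12 higher in 6 (6.07% of all pairs) and lower in 5 (6.23%). DESeq2 called 0 of the 115, with 7 at an unadjusted p under 0.05, against 1.45% of all pairs.

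In the classes with most cells, no member passed. Simulated data showed that most 2-fold changes would be missed in LSEC, stellate and Kupffer cells, so these results do not exclude such changes. Timp3 in LSEC had 2143, 3050 and 3011 CPM in CWHM-12 1 to 3, against 1985, 2688 and 2648 CPM in DMSO 1 to 3. The groups overlapped, with a log2 fold change of 0.04 ± 0.20 (SE; 95% interval -0.45 to 0.52). Mmp14 in LSEC had 183, 184 and 200.3 CPM with CWHM-12 and 180.0, 189 and 153 CPM with DMSO, a log2 fold change of 0.16 ± 0.15. Adamts1 in LSEC had 80.9, 46.9 and 68.6 CPM with CWHM-12 and 55.5, 68.9 and 72.7 CPM with DMSO, a log2 fold change of 0.02 ± 0.24. Of the 13 members tested in LSEC, 0 passed with edgeR, as did 0.0% of 11829 genes, and 0 had an unadjusted p under 0.05, where 2.29% of genes did (DESeq2 called 2 genes, neither a member). The median of the 13 log2 fold changes was 0.02, as it was over all genes. In stellate cells Adamts1 had 682, 444 and 428 CPM with CWHM-12 and 643, 567 and 517 CPM with DMSO, a log2 fold change of -0.04 ± 0.19. Adamtsl2, a protein that binds fibrillin and latent TGF-β binding protein, had 22.6, 32.4 and 31.7 CPM with CWHM-12 and 67.0, 17.3 and 120.1 CPM with DMSO. The groups overlapped (log2 fold change -1.51 ± 0.47, unadjusted p = 0.0135, edgeR adjusted p = 0.999), with -0.58 within batch 2024.6 and -1.87 within batch 2024.12. It passed with no filter on low counts (edgeR adjusted p = 0.000496). Adamtsl2 was higher in stellate cluster 16 (47.7 to 152 CPM) than in cluster 9 (4.56 to 54.3 CPM) in 6 of 6 libraries, and the groups overlapped within each of these clusters. In stellate cluster 23 it had 21.2 and 36.2 CPM in CWHM-12 1 and 2, against 132 and 234 CPM in DMSO 1 and 3, without overlap. Adamtsl4 did not overlap in that cluster either, whereas Adamts1, Adamts5 and Timp3 overlapped. The share of all genes without overlap in cluster 23 is not given here. In neutrophils, also with 2 libraries per group, it was 28.8%. CWHM-12 3 and DMSO 2 had under 20 cells of cluster 23. Cluster 16 held 22.1, 26.3 and 17.8% of stellate cells in CWHM-12 1 to 3, and 29.7, 45 and 39.8% in DMSO 1 to 3, and the part of these shares in the result was not tested. Mmp2 had 48.1, 48.2 and 63.0 CPM with CWHM-12 and 56.0, 35.4 and 29.3 CPM with DMSO, and Mmp11 37.3, 31.4 and 34.7 CPM with CWHM-12 and 36.8, 17.3 and 21.2 CPM with DMSO. Both overlapped, with log2 fold changes of 0.52 ± 0.31 and 0.54 ± 0.32. Of 21 members tested in stellate cells, 0 passed with edgeR, as did 0.0% of 10313 genes, and 1 had an unadjusted p under 0.05, where 1.93% of genes did (DESeq2 called 0 genes).

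Kupffer cells and hepatocytes gave the same picture of overlapping groups. Timp2 in Kupffer cells had 161, 236 and 242 CPM with CWHM-12 and 211, 143 and 145 CPM with DMSO, a log2 fold change of 0.30 ± 0.26 that was -0.10 within batch 2024.6 and 0.72 within batch 2024.12. Timp3 there had 56.2, 91.9 and 51.6 CPM with CWHM-12 and 41.3, 60.1 and 55.1 CPM with DMSO, and Mmp19 37, 24.2 and 22.3 CPM with CWHM-12 and 39.9, 31.9 and 37 CPM with DMSO. The log2 fold changes were 0.27 ± 0.27 and -0.32 ± 0.21, so neither exceeded the spread between libraries by the test. Of 11 members tested in Kupffer cells 0 passed with edgeR, as did 0.0% of 11507 genes, and 0 had an unadjusted p under 0.05, where 1.72% of genes did (DESeq2 called 2 genes, neither a member). In hepatocytes Mmp19 had 72.9, 51.7 and 63.2 CPM with CWHM-12 and 75.7, 54.4 and 60.001 CPM with DMSO (log2 fold change 0.06 ± 0.29). Timp3 there had 29.4, 93.9 and 59.9 CPM with CWHM-12 and 73.4, 37.5 and 34 CPM with DMSO (log2 fold change 0.10 ± 0.55). Of 9 members tested in hepatocytes 3 had a positive log2 fold change, the median was -0.40 and the range -1.28 to 0.10, against a median of 0.0065 over all genes. The groups overlapped in all 9, 0 passed with edgeR, as did 0.0% of 10342 genes, and 0 had an unadjusted p under 0.05, where 1.69% of genes did (DESeq2 called 2 genes, neither a member).

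**Figure D3:**
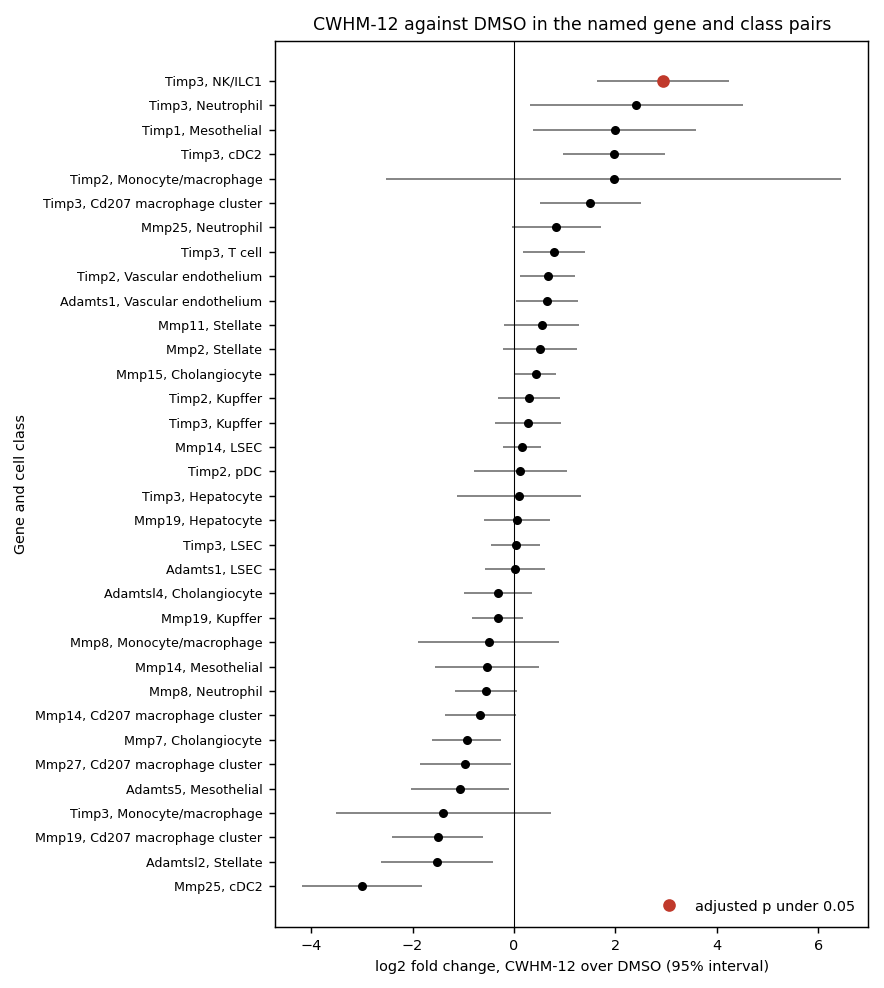
Log2 fold change, CWHM-12 over DMSO, of the 34 named pairs of a member and a class, with 95% intervals as lines and red for an edgeR adjusted p under 0.05. Timp3 in NK/ILC1 cells, at 2.94, is the red point, and Mmp25 in cDC2 lies at -3.002.

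In NK/ILC1 cells, Timp3 had 810, 294 and 0 CPM in CWHM-12 1 to 3 (181, 30 and 0 UMIs), against 51.2, 126 and 37.9 CPM in DMSO 1 to 3 (9, 13 and 6 UMIs). CWHM-12 3 was the lowest library of all and CWHM-12 1 the highest, so the groups overlapped. The edgeR log2 fold change was 2.94 ± 0.61 (adjusted p = 0.0444), in a class where 22 of 3117 genes were called (0.706%), all higher with CWHM-12. Of those 22 genes, 17 were highest in LSEC or vascular endothelium, and the share of such genes among all 3117 is not given here. The summed level of 12 LSEC markers in this class was 5463, 1265 and 376 CPM with CWHM-12 and 937, 1456 and 273 CPM with DMSO. Cells with at least 5 LSEC marker UMIs held 179 of the 181 Timp3 UMIs in CWHM-12 1, in 6 of 45 cells, and 28 of the 30 in CWHM-12 2, in 1 of 80 cells. Without such cells, an alternative chosen after seeing the data, Timp3 did not pass the filter on low counts and edgeR called 0 genes in this class. Since such cells held nearly all Timp3 UMIs with CWHM-12, its loss followed from their removal and is no separate check. Of the called genes, Clec4g, F8, Kdr and Oit3 are themselves among the 12 LSEC markers. With 1 library left out, the call was lost in 4 of 6 cases. The edgeR adjusted p was 0.9999 without CWHM-12 1 and 0.282 without CWHM-12 2, and 0.386 without DMSO 1 and 0.155 without DMSO 3. DESeq2 gave a log2 fold change of 2.61 (adjusted p = 0.999). The within-batch differences were 3.10 in batch 2024.6 and 0.36 in batch 2024.12.

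**Figure D4:**
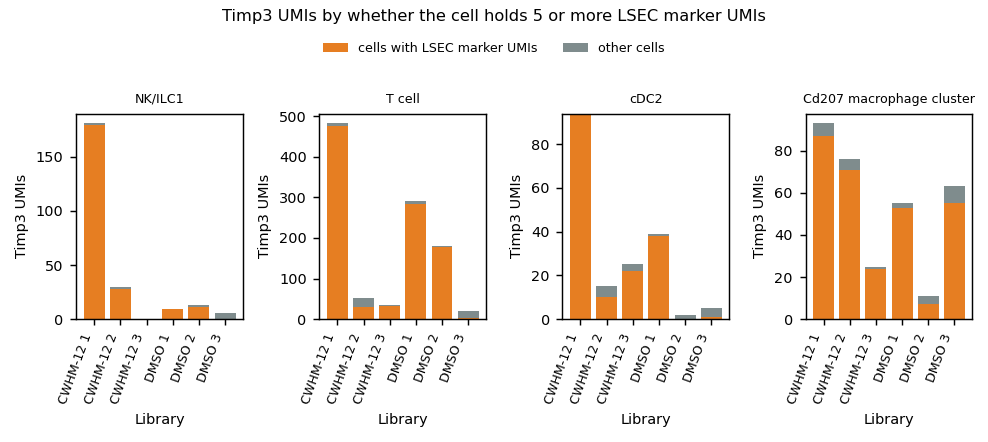
Timp3 UMIs per library in 4 leukocyte classes, stacked by whether the cell held at least 5 UMIs of LSEC markers. In NK/ILC1 cells of CWHM-12 1, 179 of 181 Timp3 UMIs fall in such cells.

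In 4 other leukocyte classes Timp3 had a positive fold change with an unadjusted p under 0.05 that did not pass. In cDC2, a class of dendritic cells, it had 332, 90.7 and 159 CPM with CWHM-12 and 135, 26.6 and 20.7 CPM with DMSO, and the groups overlapped (log2 fold change 1.97 ± 0.46, edgeR adjusted p = 0.245). In the Cd207 macrophage cluster it had 138, 149 and 139 CPM with CWHM-12 and 105, 25.2 and 36.8 CPM with DMSO. The groups did not overlap, with a log2 fold change of 1.51 ± 0.45 (edgeR adjusted p = 0.9996). LSEC marker sums there were 1296, 2102 and 1504 CPM with CWHM-12 and 2553, 1250 and 1129 CPM with DMSO, and their part in the result was not tested. In T cells the groups overlapped, with 414, 86.0 and 78.2 CPM with CWHM-12 and 261, 359 and 30.5 CPM with DMSO (log2 fold change 0.79 ± 0.27). In neutrophils it had 155 and 113 CPM with CWHM-12 and 0 and 43 CPM with DMSO, from 33 and 4 UMIs with CWHM-12 and 0 and 6 UMIs with DMSO. These groups did not overlap (log2 fold change 2.41 ± 1.07). Without cells holding at least 5 LSEC marker UMIs, an alternative chosen after seeing the data, Timp3 did not pass the filter on low counts in cDC2, the Cd207 macrophage cluster or T cells, and neutrophils had too few cells for a fit. In cDC2, the Cd207 macrophage cluster and T cells, the removed cells held 56.9 to 100% of the Timp3 UMIs of each CWHM-12 library, so this is no separate check. In the other direction, Timp3 passed in cDC2 with the stricter cell filter (edgeR adjusted p = 0.0210) and with no filter on low counts (0.000581), and in the Cd207 macrophage cluster with no such filter (0.0115). The stricter cell filter left DMSO 2 out of the cDC2 fit, since it had 16 cells there.

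Mmp25 in cDC2 had 14.1, 12.1 and 6.36 CPM in CWHM-12 1 to 3 (4, 2 and 1 UMIs), against 66.0, 53.2 and 136 CPM in DMSO 1 to 3 (19, 4 and 33 UMIs). All 3 CWHM-12 libraries were below all 3 DMSO libraries. The log2 fold change was -3.002 ± 0.54 (95% interval -4.18 to -1.82), which did not pass (edgeR adjusted p = 0.0912, unadjusted p = 0.000136), in a class where 0.0% of 3967 genes were called and 6.4% had CWHM-12 lower without overlap. The edgeR adjusted p was under the threshold without DMSO 2 (0.0198), with the stricter cell filter (0.0219), with no filter on low counts (0.000276) and without cells holding LSEC marker UMIs (0.0093). In the last of these, chosen after seeing the data, the log2 fold change was -4.80. The other alternatives gave adjusted p from 0.0758 to 0.528, and DESeq2 gave 0.0986. The counts were few, and markers of migratory dendritic cells, summed over 6 of 6 detected, were at 859, 511 and 629 CPM with CWHM-12 and 1260, 649.7 and 2736 CPM with DMSO. Their part in the result was not tested.

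Neutrophil values rest on 2 libraries per group, since CWHM-12 3 and DMSO 1 had under 20 cells. Mmp25 had 537 and 792 CPM in CWHM-12 1 and 2, against 278 and 473 CPM in DMSO 2 and 3, a log2 fold change of 0.84 ± 0.45. Mmp8 had 5469 and 4019 CPM with CWHM-12 and 7416 and 6365 CPM with DMSO, a log2 fold change of -0.55 ± 0.31. Neither pair of groups overlapped, but 28.8% of 1947 neutrophil genes did not overlap either. Of 5 members tested in this class 0 passed with edgeR, as did 0.0% of genes, and 1 had an unadjusted p under 0.05, where 3.49% of genes did (DESeq2 called 0 genes).

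**Figure D5:**
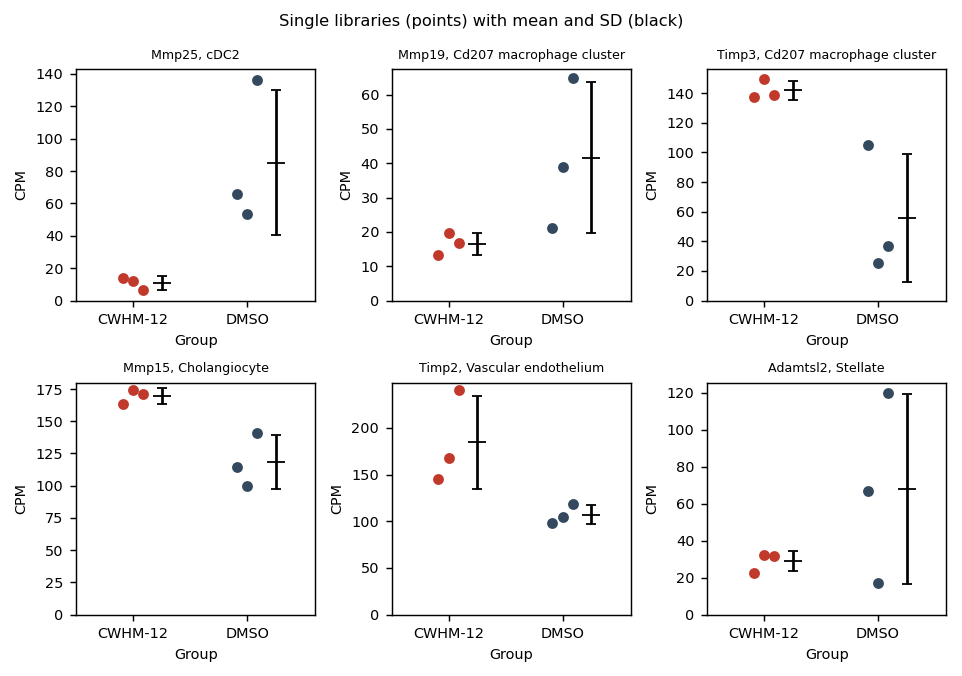
Level in CPM of 6 pairs of a member and a class in each library, with points for libraries (CWHM-12 left, DMSO right) and mean and SD. Mmp25 in cDC2 and Mmp19 in the Cd207 macrophage cluster are lower with CWHM-12 in every library, whereas Adamtsl2 in stellate cells overlaps.

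In the Cd207 macrophage cluster, Mmp19 had 13.3, 19.6 and 16.7 CPM with CWHM-12 and 21.1, 39 and 64.8 CPM with DMSO. The groups did not overlap, with a log2 fold change of -1.51 ± 0.41 that did not pass (edgeR adjusted p = 0.9996, unadjusted p = 0.0040). CWHM-12 3 held 37 cells of this cluster. Mmp14 had 38.5, 70.7 and 49.99 CPM with CWHM-12 and 78.5, 89.4 and 75.3 CPM with DMSO, again without overlap (log2 fold change -0.66 ± 0.31). Mmp27 had 34, 51.1 and 11.1 CPM with CWHM-12 and 47.9, 80.3 and 75.3 CPM with DMSO, and the groups overlapped (log2 fold change -0.96 ± 0.40). Of 7 members tested in this cluster, 3 did not overlap, against 11.4% of 6583 genes. Kupffer marker sums were 20573, 16045 and 15484 CPM with CWHM-12 and 18171, 16396 and 22969 CPM with DMSO, and their part in these values was not tested.

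The ducts and vessels gave small differences. Mmp15 in cholangiocytes had 163, 174 and 171 CPM with CWHM-12 and 115, 99.6 and 141 CPM with DMSO. These groups did not overlap either (log2 fold change 0.43 ± 0.19, edgeR adjusted p = 0.999). Mmp7 in cholangiocytes had 27.2, 40.7 and 46.4 CPM with CWHM-12 and 24.5, 27.5 and 111 CPM with DMSO, so its log2 fold change of -0.93 ± 0.31 came with overlapping groups. It was 0.06 within batch 2024.6, -1.31 within batch 2024.12 and 0.074 without DMSO 3. Adamtsl4 in cholangiocytes overlapped as well (log2 fold change -0.32 ± 0.30). Of 12 members tested in cholangiocytes 1 did not overlap, against 10.9% of 9027 genes, and edgeR called 0.0111% of the genes but no member. In vascular endothelium, Timp2 had 145, 168 and 241 CPM with CWHM-12 and 97.9, 105 and 118 CPM with DMSO, without overlap (log2 fold change 0.66 ± 0.24, edgeR adjusted p = 0.999), where 12.1% of 8317 genes did not overlap. Cluster 20 of this class, where Timp2 was at 187 to 813 CPM, held 36.9, 52.6 and 84.0% of its cells in CWHM-12 1 to 3 and 43.9, 44.7 and 18.4% in DMSO 1 to 3. In cluster 19 Timp2 was at 3.18 to 219.7 CPM, and within each of the 2 clusters the groups overlapped. Adamts1 in vascular endothelium had 212, 57.7 and 71.5 CPM with CWHM-12 and 90.4, 149.9 and 47 CPM with DMSO, and the groups overlapped (log2 fold change 0.65 ± 0.27).

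Mesothelial cells had 2 CWHM-12 libraries, since CWHM-12 1 had under 20 cells. Timp1 had 57.5 and 173 CPM in CWHM-12 2 and 3, against 62.1, 43.3 and 30.8 CPM in DMSO 1 to 3, so the groups overlapped (log2 fold change 1.98 ± 0.74, edgeR adjusted p = 0.687). Kupffer marker sums in this class were 1544 and 1934 CPM with CWHM-12 and 82.9, 116 and 388 CPM with DMSO, and their part in the result was not tested. Adamts5 had 173 and 139 CPM with CWHM-12 and 157, 86.5 and 322 CPM with DMSO, with overlap (log2 fold change -1.06 ± 0.45). Mmp14 had 79.1 and 136 CPM with CWHM-12 and 199.8, 173 and 163 CPM with DMSO, without overlap (log2 fold change -0.54 ± 0.47), in a class where 24.9% of 5113 genes did not overlap. Of the 11 members tested there edgeR called 0, against 0.156% of the genes, and 2 had an unadjusted p under 0.05, where 5.93% of genes did (DESeq2 called 9 genes, none a member). In pDC, plasmacytoid dendritic cells, where CWHM-12 1 had under 20 cells and was left out, Timp2 had 247 and 256 CPM with CWHM-12 and 195, 231 and 231 CPM with DMSO, also without overlap, as for 20.9% of 3750 genes (log2 fold change 0.12 ± 0.40). In the monocyte/macrophage class, Timp2 had 106, 460.1 and 1999 CPM with CWHM-12 and 65.7, 333 and 18.8 CPM with DMSO. The log2 fold change of 1.96 ± 1.95 was no larger than its error, and CWHM-12 3, with 23 cells, had 71.4% of its 217 UMIs in 3 cells. Kupffer marker sums in that class were 1370, 6351 and 11753 CPM with CWHM-12 and 884, 2567 and 415 CPM with DMSO, and their part in the result was not tested. Mmp8 there had 87.2, 117 and 9.21 CPM with CWHM-12 and 65.7, 80.3 and 183 CPM with DMSO. Timp3 had 72.1, 89.2 and 0 CPM with CWHM-12 and 93.4, 17.2 and 451 CPM with DMSO, so both genes overlapped.

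Whether members responded differently in LSEC and stellate cells was tested as an interaction. Of 26 members, edgeR called 0, against 0.0% of 12033 genes, and 3 members had an unadjusted p under 0.05, as did 5.44% of genes. These were Adamts9, Mmp2 and Adamts5, whose log2 fold change was higher in stellate cells than in LSEC by 0.75 ± 0.29, 2.76 ± 1.11 and 0.66 ± 0.29. Mmp2 had 0, 1 and 0 UMIs in LSEC with CWHM-12 and 5, 1 and 1 UMIs in LSEC with DMSO, so its difference rests on an LSEC level too low to read. The 26 include Adamts3 and Adamtsl3, which entered this joint fit but were too low to test in any single class. No other tool was run for the interaction. Other genes of matrix turnover were taken from 5 lists with 94 genes, the plasminogen system, cathepsins and cystatins, ADAM and astacin proteases, other regulators and matrix substrates. With edgeR 0 of 56 tested in LSEC, 0 of 66 in stellate cells and 0 of 46 in Kupffer cells passed in either direction, with 2, 1 and 1 at an unadjusted p under 0.05, and DESeq2 called 0 of them in these classes. Over all 16 classes edgeR called 0 of 554 pairs of a listed gene and a class, with 51 at an unadjusted p under 0.05 (9.21%, against 2.68% of all pairs), and DESeq2 called 1, Fn1 (fibronectin) in cDC2. Of the 51, 10 were in mesothelial cells and 8 each in cDC2, T cells and vascular endothelium. The lists were chosen with earlier results of these data known, so this share is a description only. Among the listed genes, Fbln2, a matrix glycoprotein, averaged 13.2 ± 8.98 CPM with CWHM-12 and 61.6 ± 10.6 CPM with DMSO in LSEC (SD, n = 3 each), without overlap (log2 fold change -2.17 ± 0.65, edgeR adjusted p = 0.999). Lamc1, a laminin chain, averaged 73.3 ± 12.5 CPM with CWHM-12 and 106 ± 18.2 CPM with DMSO there, and Ctss, the cathepsin S of antigen-presenting cells, 37.3 ± 12 CPM with CWHM-12 and 70.5 ± 11.3 CPM with DMSO in stellate cells. Pcolce2, which enhances procollagen processing, averaged 236 ± 27.7 CPM with CWHM-12 and 179 ± 22 CPM with DMSO in Kupffer cells. These 3 did not overlap between the groups and did not pass, in classes where 11.8% of LSEC genes, 9.99% of stellate genes and 11.2% of Kupffer genes did not overlap.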

How the data were processed

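Libraries came from BD Rhapsody whole-transcriptome kits, as the labels' protocols state. The deposited values are whole-number UMI counts for each gene and barcode, with build GRCm39 per the submitters' processing notes. For aligner, annotation and strand use, nothing was given in the sources used here. Kept barcodes had 300 or more genes, 500 or more UMIs and a mitochondrial share of up to 30%. Doublets above a Scrublet score of 0.25 were removed, 1.11 to 2.72% of a library. Cells were clustered (scanpy 1.11.5, Leiden resolution 1.5, 2000 variable genes without the members, no integration) and named by hand from markers. Counts were summed per library and class, with at least 20 cells, and compared by quasi-likelihood tests in edgeR 4.0.16 (TMM, filterByExpr, batch term, Benjamini-Hochberg at 0.05 within a class). CPM use TMM-scaled library sizes. Standard errors are the log2 fold change divided by the root of its F, and within-batch differences use a prior count of 2. The interaction fit held the library as a block and a class by batch term. Alternatives included DESeq2 1.42.0, other filters, other classes and leaving out each library. Leaving out cells with at least 5 UMIs of 12 LSEC markers was chosen after seeing the data. Named were members at 20 CPM or more in a class, pairs with an adjusted or unadjusted p under 0.05 or without overlap, and the 3 of smallest p in 7 classes. Promoters and positions came from GRCm38 tables by symbol. The members and lists were chosen with earlier results of these data known. Fits were tested on simulated data, where 9.1% of 2-fold changes were recovered in LSEC, 11.5% in stellate cells and 27.4% in Kupffer cells. Of 4-fold changes, 82.1, 78.7 and 84.5% were recovered, with 3, 10 and 6 false calls of unchanged genes. A 2-fold change in these classes would thus mostly be missed.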

Additional observations from a re-analysis of the deposited data

Results flagged for a closer look

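Mmp25 had fold changes of opposite sign in 2 classes. Its log2 fold change was 0.84 in neutrophils, where both CWHM-12 libraries were above both DMSO libraries, and -3.002 in cDC2, where all 3 CWHM-12 libraries were below all 3 DMSO libraries. The difference between the classes was not tested, and neither value passed the edgeR adjusted threshold. In cDC2 it passed in 4 alternatives: without DMSO 2, with the stricter cell filter, with no filter on low counts, and without cells holding LSEC marker UMIs, where the log2 fold change was -4.80. All of these except the fit with no filter on low counts lacked DMSO 2, so they are not separate checks.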

How the results depend on the processing

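The count of called member pairs, 1, was 0 with no batch term, with the replicate block, with DESeq2, with looser limits on cells and with score-based classes, 2 with the stricter cell filter and 6 with no filter on low counts. It ranged from 0 to 2 when 1 library was left out. Genes called in LSEC, 0, were 2 with DESeq2 and 24 with no filter, in Kupffer cells 2 and 9, and in stellate cells 29 with no filter. The replicate numbers were not treated as pairs. In LSEC, stellate and Kupffer cells, same-numbered libraries correlated between -0.08 and 0.32, and differently numbered ones between -0.35 and 0.28. With so few libraries per group, these values cannot settle whether the numbers mark pairs. Of 491 values of the 34 named pairs under alternatives, 440 kept direction and call, 10 lost the call, 8 gained it and 33 changed sign. The cause was not tested. With no batch term, log2 fold changes turned to -0.0070 for Adamts1 in LSEC, -0.0080 for Mmp19 in hepatocytes and -0.13 for Timp3 in T cells, and with the replicate block to -0.030, -0.014 and -0.056. With score-based classes, values turned to 0.049 for Mmp8 and 0.056 for Timp3 in monocytes, -0.11 for Timp2 in pDC, -0.061 for Timp3 in Kupffer cells and -0.59 for Timp3 in neutrophils. Without cells holding LSEC marker UMIs, chosen after seeing the data, values turned to -0.028 for Mmp19 and -0.38 for Timp3 in hepatocytes, and 0.028 for Mmp19 and -0.17 for Timp3 in Kupffer cells. With 1 library left out, values ranged in LSEC from -0.33 to 0.37 for Adamts1, from -0.019 to 0.33 for Mmp14 and from -0.13 to 0.20 for Timp3. In hepatocytes they ranged from -0.048 to 0.19 for Mmp19 and from -0.90 to 1.15 for Timp3, and in Kupffer cells from -0.67 to 0.042 for Mmp19 and from -0.13 to 0.72 for Timp2. Mmp7 in cholangiocytes ranged from -1.34 to 0.074. In monocytes, Mmp8 ranged from -1.34 to 0.26, Timp2 from -0.88 to 5.96 and Timp3 from -3.08 to 0.28. Depth limits the 14 members tested in no single class and the classes with few cells.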
